A study of Mus musculus with 10 samples.

Results

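The 6 genes described here carry the signal of leukaemia inhibitory factor (LIF) into the nucleus of mouse embryonic stem cells: the receptor chains Lifr and Il6st, the kinases Jak1 and Jak2, the transcription factor Stat3 and the feedback inhibitor Socs3. They were chosen by name. Every entry of the authors' deposited 5-carboxylcytosine (5caC) table that lay in the RefSeq span of a gene, or within 2 kb of it, was taken. This gave 393 of 922427 listed CG positions and 518 of 1183229 entries, since a position can be listed in several groups.

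LIF binds LIFR, which pairs with the shared chain gp130, the product of Il6st. The JAK kinases attached to the receptors then phosphorylate STAT3, which enters the nucleus and activates genes of the naive pluripotency network and its own inhibitor Socs3. In mouse embryonic stem cells this pathway sustains self-renewal. 5caC is the most oxidised product that TET enzymes make from 5-methylcytosine, and thymine DNA glycosylase, encoded by Tdg, excises it, so the mark is sparse in normal cells and gathers where TET enzymes have worked in cells that lack the glycosylase.

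The 10 samples were genomic DNA of mouse embryonic stem cells, in 5 groups of 2 technical replicates. The wt and Tdg cells each had a serum group (15% FBS, feeder-free on gelatin) and a serum-2i group, whose medium also held 3 µM CHIR99021, an inhibitor of GSK3, and 1 µM PD0325901, an inhibitor of MEK. All media held 1000 units/ml LIF, so the ligand of this pathway was present in every group. The labels name Tdg without the kind of alteration or the clone. A negative control came from triple Tet knockout cells in serum. The submitters refer to the culture states as naive and primed pluripotency.

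The table gave 1 coverage value per CG position and group, in steps of 0.5, taken as the mean of the 2 technical replicates. Values per replicate and for the control were not analysed here, so no spread or background stands beside a value, and no p-value is given. Listed sites numbered 8685 for serum wt (median coverage 4.5), 110753 for serum-2i wt (7.5), 374488 for serum Tdg (14.5) and 689303 for serum-2i Tdg (13.5). The lowest listed coverage was 3, 4, 6 and 6 in that order, and a position that a group did not list has an unknown value there, not 0. The cell type could not be checked against marker genes, because the assay measured DNA.

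Only 4 listed CGs of the 6 genes lay in the promoter windows of the RefSeq starts used. RefSeq promoter windows of the build GRCm38.p6, which is the assembly of mm10, ran from 250 bases before to 50 bases after each start, and there were 7 of them because Lifr had 2 starts, both downstream of the 5′ end of its span. These windows held 209 CGs, of which 4 were listed in any group, 3 of them at the later Lifr start and 1 at Jak1. The windows of Il6st (33 CGs), Jak2 (44), Stat3 (15) and Socs3 (31) held none. The windows did not cover the 5′ end of the Lifr span or that of the Socs3 span. In the 2 kb flank before the Lifr span, serum-2i Tdg cells listed 7 CGs, serum Tdg cells 2 and serum-2i wt cells 1. Of these, chr15:7090475, at -135 from the span, had a coverage of 57 in serum-2i Tdg and 29 in serum Tdg cells. Of all 21045 promoter windows of protein-coding genes, 22.3% held a listed CG, and 2.97% of their CGs were listed.

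Lifr is shown with both starts because its listed CGs set them apart. The earlier window, chr15:7129322-7129621 on the plus strand, had 53 CGs and none was listed. The later window, chr15:7140292-7140591 on the plus strand, had 4 CGs and 3 were listed. Jak1, chr4:101265174-101265473 on the minus strand, had 29 CGs and 1 was listed. All are printed 5′ to 3′, with the listed CGs in capitals.
Lifr, earlier start: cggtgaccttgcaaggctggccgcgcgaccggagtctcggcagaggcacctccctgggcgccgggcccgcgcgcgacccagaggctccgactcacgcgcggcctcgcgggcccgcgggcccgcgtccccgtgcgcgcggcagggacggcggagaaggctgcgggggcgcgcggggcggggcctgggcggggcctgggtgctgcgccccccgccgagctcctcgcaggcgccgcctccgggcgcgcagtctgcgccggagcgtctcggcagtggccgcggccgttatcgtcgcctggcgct
Lifr, later start: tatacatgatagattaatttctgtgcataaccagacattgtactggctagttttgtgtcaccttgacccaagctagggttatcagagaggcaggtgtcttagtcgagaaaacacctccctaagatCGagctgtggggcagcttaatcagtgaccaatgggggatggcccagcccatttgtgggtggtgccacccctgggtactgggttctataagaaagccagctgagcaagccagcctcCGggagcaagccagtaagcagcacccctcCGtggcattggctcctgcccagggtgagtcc
Jak1: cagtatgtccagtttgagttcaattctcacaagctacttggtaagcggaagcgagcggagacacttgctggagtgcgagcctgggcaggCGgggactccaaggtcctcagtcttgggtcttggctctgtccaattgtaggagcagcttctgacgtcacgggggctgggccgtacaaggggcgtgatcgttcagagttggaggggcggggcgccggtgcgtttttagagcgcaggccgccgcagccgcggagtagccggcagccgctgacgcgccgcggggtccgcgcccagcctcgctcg

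At the later Lifr start, the CG at chr15:7140532, at -10 from the start, had a coverage of 43 in serum Tdg cells, 55.5 in serum-2i Tdg cells and 8 in serum-2i wt cells. It was 1 of 8 positions of the 6 genes that 3 groups listed. The other 2 listed CGs of that window were seen in serum Tdg cells alone, at 15 (chr15:7140417) and 6.5 (chr15:7140561). At Jak1 the listed CG, chr4:101265383, lay at -160 from the start and had a coverage of 10.5 in serum Tdg cells alone.

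Socs3 is printed because it is the member whose sites were most concentrated, yet its promoter window, chr11:117969317-117969616 on the minus strand, had no listed CG. That window was set by a start at chr11:117969366, which lies inside the span, whose 5′ end is chr11:117970336. At that 5′ end, serum Tdg cells alone listed chr11:117970335 at 33 and chr11:117970359 at 22. The promoter window was also searched for the core motif that STAT proteins bind, TTCNNNGAA, which reads the same on both strands. It was the only motif searched. Capitals mark the fixed letters of the single match, which starts at base 97 of the window.
Socs3: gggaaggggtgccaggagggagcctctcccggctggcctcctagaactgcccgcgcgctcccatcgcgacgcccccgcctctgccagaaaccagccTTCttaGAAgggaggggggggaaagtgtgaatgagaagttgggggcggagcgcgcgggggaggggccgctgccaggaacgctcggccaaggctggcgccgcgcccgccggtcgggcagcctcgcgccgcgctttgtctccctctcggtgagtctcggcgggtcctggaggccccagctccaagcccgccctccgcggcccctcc
None of the other 6 windows held the motif, and 7.76% of all protein-coding promoter windows did. A match describes the letters of this window and is not evidence of binding, and the absence of a match in 300 bases says nothing about STAT3 at the other genes.

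Within 1 kb of the 7 RefSeq starts of the promoter windows, serum Tdg cells listed more member sites than serum-2i Tdg cells although they listed fewer overall. The count was 16 of 139 sites for serum Tdg (11.5%, exact Clopper-Pearson 95% interval 6.72 to 18.0) and 3 of 309 for serum-2i Tdg (0.971%, 0.201 to 2.81). It was 1 of 68 (1.47%) for serum-2i wt and 0 of 2 for serum wt. Over all listed sites on the 19 chromosomes of the promoter table the shares were 7.84% for serum Tdg, 2.37% for serum-2i Tdg, 1.73% for serum-2i wt and 8.59% for serum wt. For these starts, the order of the 2 Tdg groups was therefore the same in the 6 genes as in the whole table. The counts depend on the starts used, and the 5′ end of the Lifr span was not among them. In the 2 kb flank before that end, serum-2i Tdg cells listed 7 sites and serum Tdg cells 2. The 5′ flank of Socs3, most of it over 1 kb from its start, held 2 and 5. These intervals, and all others here, cover counting error only: reads made by PCR without molecular identifiers are not independent molecules and neighbouring CGs can share reads. Of the member sites, 64.7% in serum Tdg and 59.5% in serum-2i Tdg cells had another listed site within 100 bp, against 17.6% in serum-2i wt cells.

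Lifr, the LIF-binding receptor chain (gene ID 16880, chr15:7090610-7197489, plus strand), held the most listed positions of the 6, 158. It had 1 site in serum wt cells, 28 in serum-2i wt, 52 in serum Tdg and 136 in serum-2i Tdg cells, with summed coverage of 4.5, 214, 1025.5 and 2473. Relative to window length this was 0.469 sites per kb in serum Tdg cells (exact Poisson 95% interval 0.350 to 0.615) and 1.23 in serum-2i Tdg cells (1.03 to 1.45). The medians of the 3919 protein-coding windows within 2-fold of its length were 0.121 and 0.322. Lifr was thus denser in listed sites than the median window of like length in each Tdg group.

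The highest single value of the 6 genes was a Lifr site. At chr15:7132865, 3293 bases after the earlier start, coverage was 122 in serum Tdg and 39 in serum-2i Tdg cells. The highest in serum-2i Tdg cells, 86, lay near the other end, at chr15:7180716, where serum Tdg had 24 and serum-2i wt 10. The densest kilobase also differed between media. In serum Tdg cells it was chr15:7143956-7144886, with 8 sites, of which serum-2i Tdg cells listed 4. In serum-2i Tdg cells it was chr15:7137063-7137913, between the 2 starts, with 12 sites, of which serum Tdg cells listed 5.

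Il6st, which encodes gp130 (gene ID 16195, chr13:112464070-112506860, plus strand), showed the widest gap between media on the serum-2i side. Serum Tdg cells listed 8 sites and serum-2i Tdg cells 46, with summed coverage of 100.5 and 861. In wt cells it had 1 site in serum (coverage 5) and 15 in serum-2i (sum 137). Serum-2i wt cells thus listed more Il6st sites than serum Tdg cells did, which no other member did, and at Jak1 the counts were equal.

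In serum, the Il6st sites gathered in the early part of the gene. Of the 8 sites of serum Tdg cells, 4 lay in chr13:112466888-112467470, 2818 to 3400 bases after the start, with coverage of 9.5, 10, 22 and 12.5. The single serum wt site of the gene, chr13:112467470, was the last of these 4. In serum-2i Tdg cells the densest kilobase was chr13:112496668-112497385, with 6 sites and none listed in serum, and serum-2i wt cells listed 3 of its positions. The highest pair of neighbours in the gene, chr13:112501422 and chr13:112501440, had 62 and 69.5 in serum-2i Tdg cells and no serum entry, while serum-2i wt cells listed the latter at 15.

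**Figure D1:**
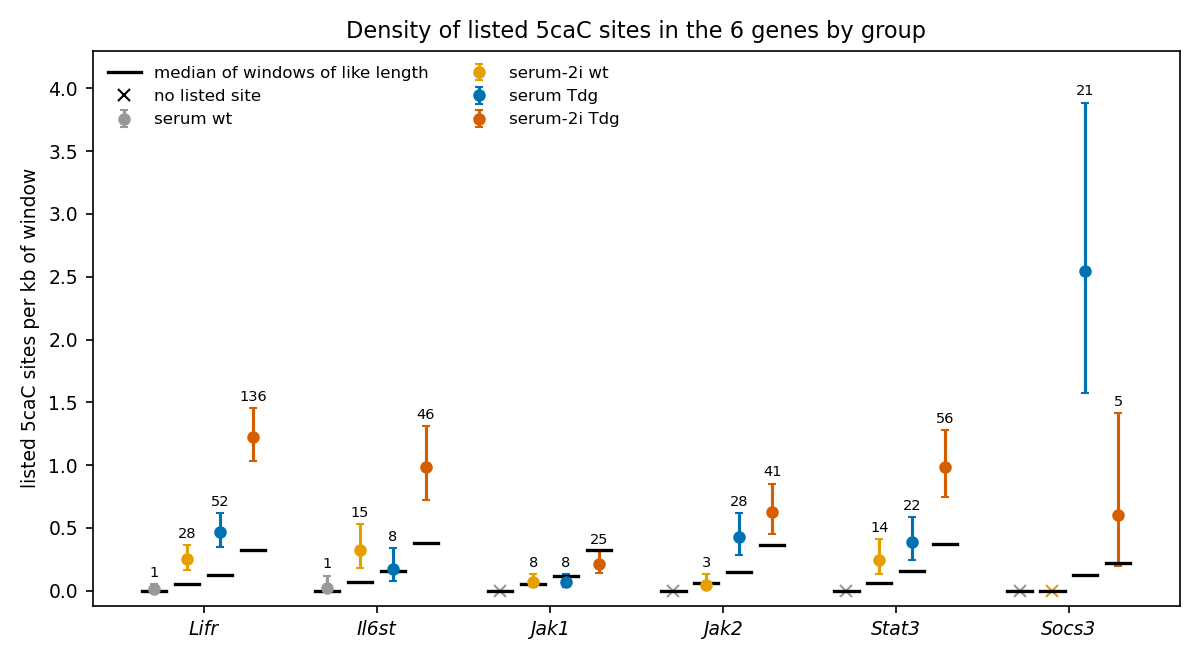
Listed 5caC sites per kb of window (linear axis) in the 6 genes, by group. Points are 1 value per group with the exact Poisson 95% interval of the site count, which is printed above each point, black bars are medians of protein-coding windows within 2-fold of the length, and crosses mark groups with no listed site. Socs3 stands highest in serum Tdg cells at 2.54, and Jak1 lies below the black bar in each Tdg group.

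The kinases differed from each other. Jak1 (gene ID 16451, chr4:101151974-101265282, minus strand), a main kinase of the receptors that share gp130, had the longest window, 117 kb, and the lowest density in each Tdg group. It had 8 sites in serum-2i wt, 8 in serum Tdg and 25 in serum-2i Tdg cells, and none in serum wt cells. At 0.0682 sites per kb in serum Tdg (0.0294 to 0.134) and 0.213 in serum-2i Tdg cells (0.138 to 0.315), it was below the medians of windows of like length, 0.119 and 0.322. Its interval in serum-2i Tdg cells excluded that median, and in serum Tdg cells it did not.

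Jak1 sites of serum Tdg cells were few and partly at the start, where 3 of the 8 lay within 1 kb. In serum-2i Tdg cells the densest kilobase was at the far end, chr4:101156063-101156411, with 4 sites that summed to 135. Of these, serum Tdg cells listed 1, chr4:101156063, at 9 against 59.5. The 3 Jak1 sites in the flank beyond its end, chr4:101151328 at 58.5 among them, lay in the span of the neighbouring gene Raver2, which overlaps that end, and were listed in serum-2i Tdg cells alone.

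Jak2 (gene ID 16452, chr19:29251803-29313095, plus strand), the partner kinase at several cytokine receptors, had 28 sites in serum Tdg and 41 in serum-2i Tdg cells, summing to 436.5 and 793.5. It had only 3 sites in serum-2i wt cells (sum 29.5) and none in serum wt cells. The 3 wt positions were all also listed in serum-2i Tdg cells, at 8.5, 58.5 and 15.5 against 7, 14 and 8.5 in wt. A run of 7 sites in chr19:29285104-29285850 held 33.8% of the gene's coverage in serum Tdg cells. Of these 7 positions, serum-2i Tdg cells listed 2, at 15 and 15.5 against 26 and 27 in serum. Conversely, 4 neighbouring sites at chr19:29277135-29277174, with coverage of 23.5, 30, 41 and 18.5, were listed in serum-2i Tdg cells alone.

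Stat3, the transcription factor of the pathway (gene ID 20848, chr11:100886806-100939594, minus strand), had 14 sites in serum-2i wt, 22 in serum Tdg and 56 in serum-2i Tdg cells, and none in serum wt cells. Summed coverage was 106.5, 378.5 and 1115.5. Its densities were 0.387 sites per kb (0.243 to 0.587) in serum Tdg and 0.986 (0.745 to 1.28) in serum-2i Tdg cells, above the medians of 0.153 and 0.372 of windows of like length. Upstream of its start, 4 sites within 31 bases (chr11:100939848-100939878) were listed in serum Tdg cells alone, at 22, 7.5, 7 and 8.5. They lay at -308 to -338 from the start and inside the span of the long noncoding RNA Gm46295.

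Further into Stat3, the densest stretches of each medium held sites of the other. The densest kilobase in serum Tdg cells, chr11:100904802-100905793, had 6 sites there, and serum-2i Tdg cells listed 5 sites in it. The densest in serum-2i Tdg cells, chr11:100888623-100889514 near the end of the gene, had 10 sites with a sum of 257.5, and serum Tdg cells listed 4. Within that stretch chr11:100888677 was listed in 3 groups, at 7 in serum-2i wt, 12 in serum Tdg and 57.5 in serum-2i Tdg cells. The flank beyond this end held 2 sites, both in serum Tdg cells alone (8 and 9), and the farther one lay in the span of Stat5a.

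Socs3, which blocks JAK kinase activity at gp130 and is itself a STAT3 target (gene ID 12702, chr11:117966079-117970336, minus strand), went the other way from the rest. Serum Tdg cells listed 21 sites, serum-2i Tdg cells 5, and there were none in either wt group, with summed coverage of 503 and 68.5. All 5 positions of serum-2i Tdg cells were among the 21. Its window is short, 8.26 kb, so its density in serum Tdg cells was 2.54 sites per kb (1.57 to 3.89) against a median of 0.122 for windows of like length. In serum-2i Tdg cells it was 0.605 (0.197 to 1.41), against 0.224.

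The Socs3 sites flanked the gene more than they filled it. In serum Tdg cells 10 of the 21 lay in the 3′ flank, 5 in the 5′ flank and 6 in the span. In serum-2i Tdg cells 3 lay in the 3′ flank, 2 in the 5′ flank and none in the span. The 3′ flank stretch chr11:117964996-117965970 held 54.6% of the serum coverage, led by chr11:117965744 at 78 and chr11:117965728 at 37.5, neither listed in serum-2i. At the 5 shared positions, serum against serum-2i coverage was 30.5 against 16, 31 against 18, 26 against 7.5, 13.5 against 14 and 18.5 against 13. It was lower in serum-2i at 4 of the 5.

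**Figure D2:**
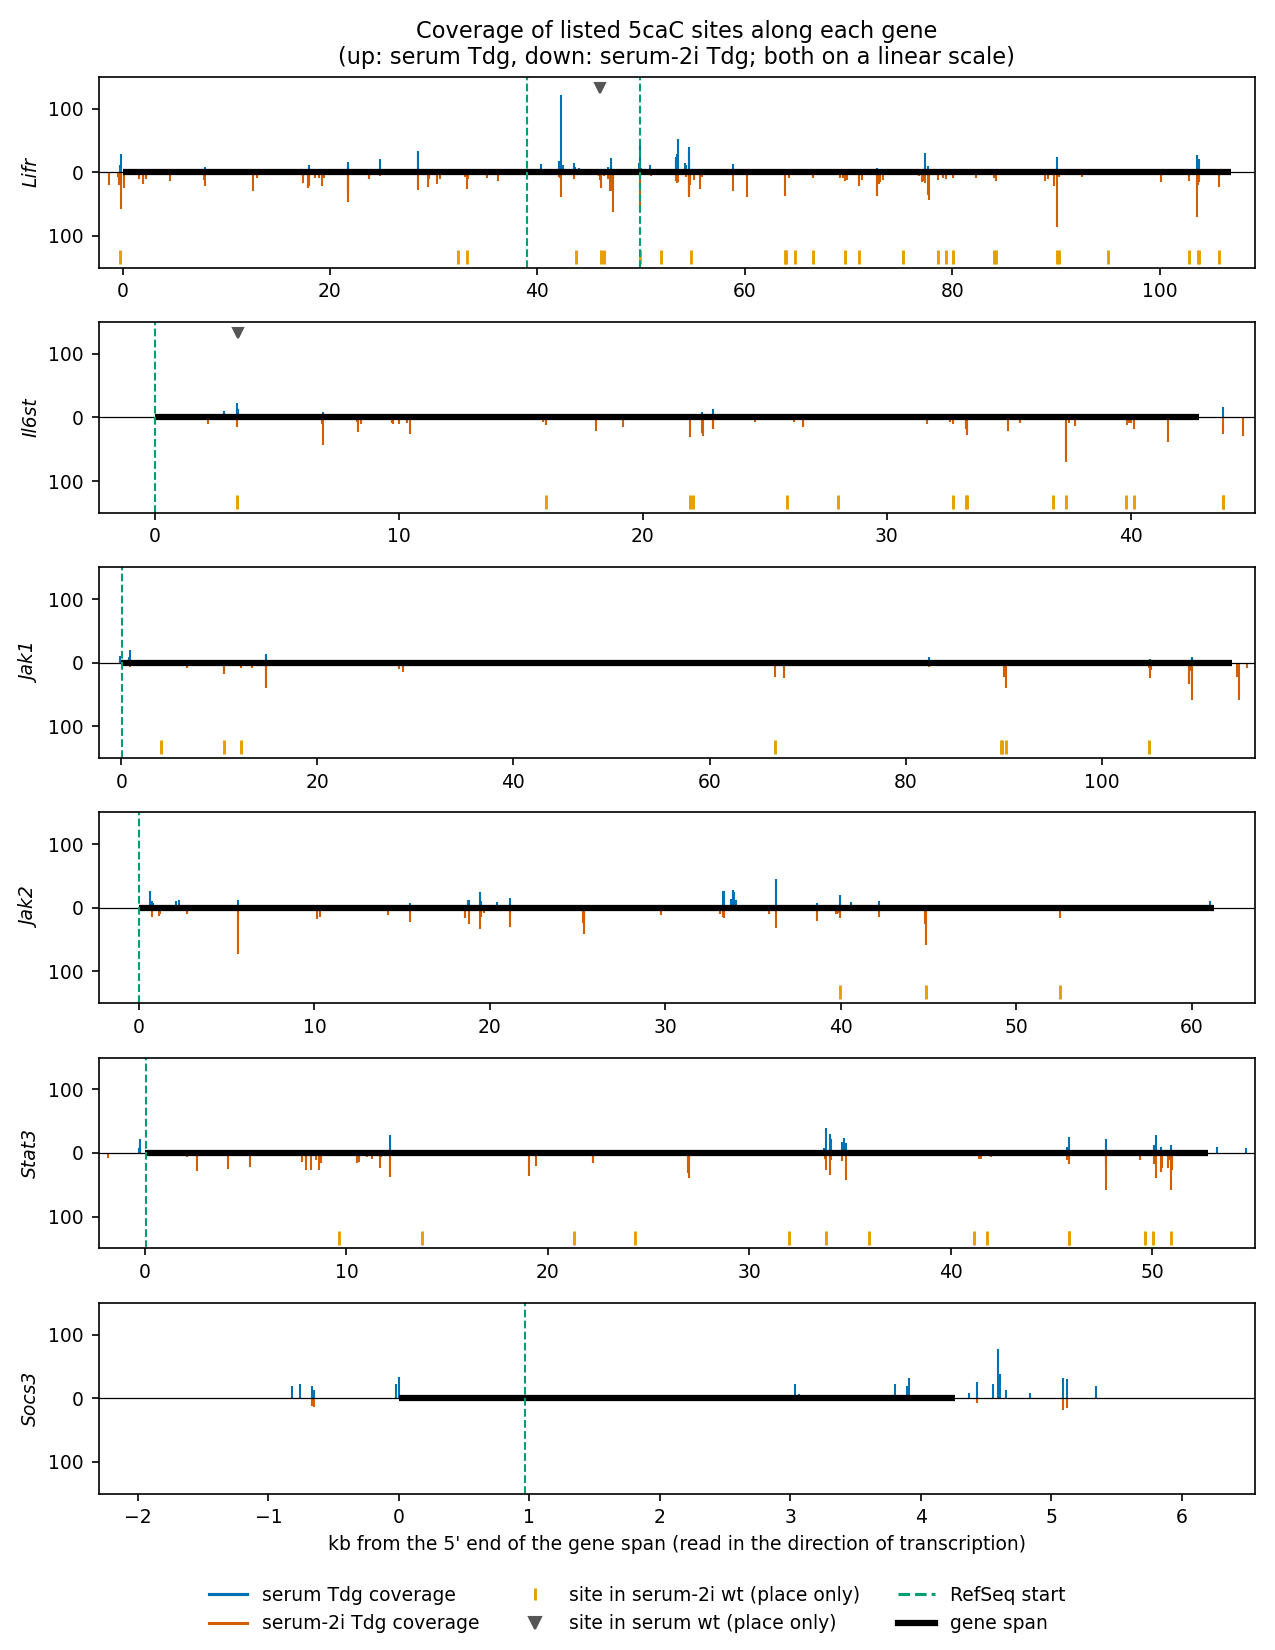
Coverage of each listed site (linear axis) along the 6 genes, in kb from the 5′ end of the span. Bars up are serum Tdg cells, bars down serum-2i Tdg cells, ticks and triangles give only the place of sites in serum-2i wt and serum wt cells, dashed lines are RefSeq starts and the thick line is the span. Socs3 has bars up on either side of the span and 5 bars down, all in the flanks, while Il6st has mostly bars down.

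The order of the genes by density changed with the group. In serum Tdg cells it ran Socs3, Lifr, Jak2, Stat3, Il6st and Jak1, and only Socs3 stood apart from its neighbour in that order by intervals that did not overlap. In serum-2i Tdg cells it ran Lifr, Stat3, Il6st, Jak2, Socs3 and Jak1, and no neighbours were apart. In serum-2i wt cells Il6st (0.321), Lifr (0.253) and Stat3 (0.247) formed an upper set, and the interval of Stat3 (0.135 to 0.414) did not overlap that of Jak1 (0.0682, 0.0294 to 0.134). Jak2 followed at 0.0459, and Socs3 had no site. In serum wt cells, 18.5% of protein-coding windows had any site, and of the 6 genes only Lifr and Il6st had 1 each.

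The first comparison set the media side by side within Tdg cells, which asks how listed 5caC differs with the culture state. It was made on the share of a group's summed coverage that fell in a window, so that totals cancel. A window was called higher or lower where the shares differed by at least 2-fold and the 95% counting interval excluded no difference. Il6st was called higher, with a log2 ratio of 2.38 (interval 2.17 to 2.59), which is 5.19-fold. Jak1 was called higher too, at 1.92 (1.69 to 2.15). Socs3 was called lower, at -3.60 (-3.87 to -3.34), a 12.1-fold smaller share.

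Stat3 (0.84, 0.72 to 0.96), Lifr (0.55, 0.47 to 0.62) and Jak2 (0.14, 0.02 to 0.26) were between. Of all 15242 protein-coding windows with a site in both groups, 25.2% were called higher, 27.0% lower and 52.2% in either direction. The 2 higher and 1 lower of 6 are thus close to what all windows show, and the count is not a result about these genes as a set. The median of the 6 was 0.69, against -0.05 over all windows. Ratios were also related to window length, so each gene was set beside windows within 2-fold of its length, whose median ratios were 0.17 for Il6st, 0.54 for Jak1, 0.26 for Stat3, 0.51 for Lifr, 0.33 for Jak2 and -0.97 for Socs3. Lifr lay close to its value, Jak2 lay below it, and Il6st, Jak1 and Stat3 lay above theirs. Socs3 was further down, and 49.0% of windows of its length were called lower too.

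By number of sites in place of coverage, the Jak1 log2 ratio was 0.76 with an interval of -0.43 to 2.12 and was not called, so its call rests on coverage per site, whose median was 9.75 in serum and 18 in serum-2i. Stat3 was just under the 2-fold line and passed it without flanks (1.09), from a minimum coverage of 10 (1.02) and without sites in other genes (1.06). It was further from the line by number of sites (0.47, -0.27 to 1.25) and centred on windows of like length (0.57). The Socs3 ratio rests on the flanks, since serum-2i Tdg cells listed no site in its span, and without flanks it has no ratio and no call.

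Positions listed in both media were also compared. In all, 83 positions of the 6 genes were shared, which is 59.7% of the serum Tdg sites and 26.9% of the serum-2i Tdg sites. Over the whole table the shares were 52.8% and 28.7%. At the shared member positions the median log2 ratio of coverage, serum-2i over serum, was 0.40, with 52 higher and 30 lower, against a median of 0.05 over all shared positions. By gene the medians were 1.62 for Jak1 (5 positions), 0.68 for Il6st (5), 0.43 for Jak2 (15), 0.40 for Stat3 (14), 0.37 for Lifr (39) and -0.78 for Socs3 (5). These are ratios of raw coverage, and the serum-2i total was larger by 0.72 on the log2 scale. With coverage divided by the group totals, as for the windows, the median over the 83 positions was -0.32, with 31 higher and 52 lower, against -0.67 over all shared positions. The median was then above 0 at Jak1 (0.90) and below it at Il6st (-0.04), Jak2 (-0.29), Stat3 (-0.32), Lifr (-0.35) and Socs3 (-1.51, lower at 5 of 5). Values below 0 were common, since 143426 of all 197737 shared positions were lower. Set against the -0.67 of all shared positions, Socs3 lay below and the other genes above. As for the windows, Il6st and Jak1 were highest and Socs3 lowest. At Il6st, 5 of the 46 sites of serum-2i Tdg cells were also listed in serum Tdg cells.

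**Figure D3:**
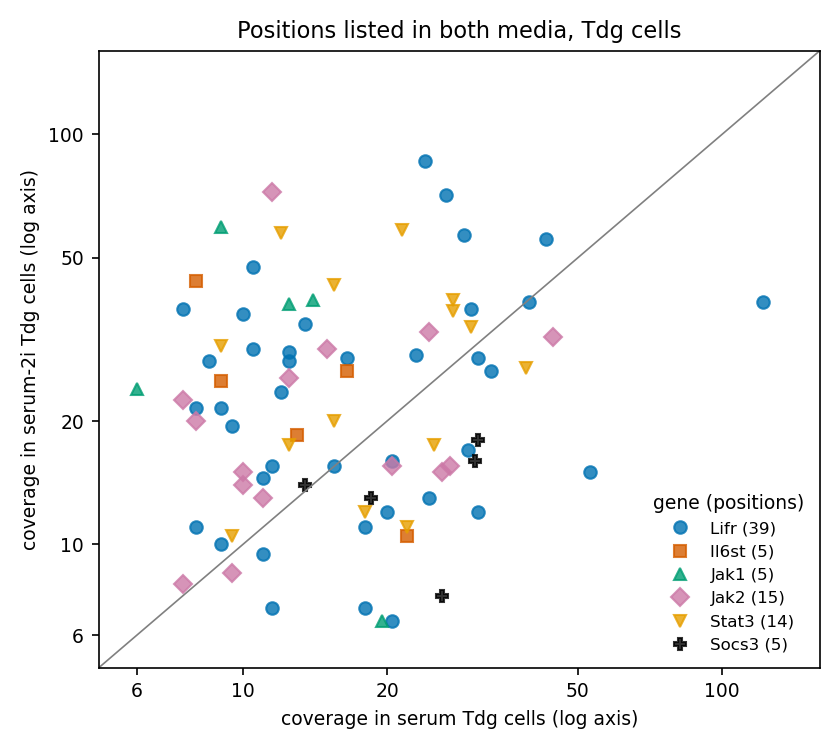
Coverage in serum-2i Tdg cells (y, log axis) against serum Tdg cells (x, log axis) at the 83 positions of the 6 genes listed in both. Each point is 1 CG position, and the line marks equal raw coverage, not divided by the group totals. Of the 5 Socs3 points 4 lie below the line, and of the 5 Il6st points 4 lie above it.

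The comparison of Tdg with wt cells in serum-2i asks which sites gain listed 5caC where Tdg is altered. All 6 genes had more listed sites in Tdg cells, by 3.07-fold (Il6st) to 13.7-fold (Jak2) among the 5 with a site in wt cells, against 6.22-fold over the whole table. Socs3 had 5 sites against none. By share of coverage, Il6st was called lower in Tdg cells, at -1.14 (-1.33 to -0.95), and 4 genes were between. Over 13036 windows 25.0% were called lower, 10.6% higher and 35.6% in either direction, so 1 of 5 lower is close to the background. With the median window as 0, 18.2% were lower and 15.9% higher.

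Jak2 (0.96, 0.58 to 1.36) lay just under the line for a higher share. It passed the line with the median window (1.24) or like length (1.16) as 0. It also passed when its highest site was left out (1.75), which takes 14 of the 29.5 coverage of its 3 wt sites. It was lower from a minimum coverage of 6 (0.71) or 10 (0.60), and by number of sites the interval ran from -0.51 to 3.47. Jak1 (-0.65, -0.91 to -0.37), Stat3 (-0.41, -0.61 to -0.20) and Lifr (-0.26, -0.41 to -0.12) had smaller shares within 2-fold. The median of all windows was -0.29. With that median as 0, Jak1 was at -0.36 (-0.63 to -0.08), Stat3 at -0.12 (-0.32 to 0.09) and Lifr at 0.02 (-0.12 to 0.17). The Il6st call did not hold without flanks (-0.97), with 5 kb flanks (-0.86) or with the median window (-0.86) or like length (-0.85) as 0. Of the 68 serum-2i wt sites of the 6 genes 40 (58.8%) were also listed in serum-2i Tdg cells, and raw coverage was higher in Tdg cells at 37 of them. The raw median log2 ratio there was 0.94, against 1.20 over all shared positions. Divided by the group totals, coverage was lower in Tdg cells at all 40 (median -2.86, against -2.59 over all shared positions). That was so at 53857 of all 54406 shared positions, since the totals differed by 3.79 on the log2 scale, so the count says nothing particular about these genes. All listed sites had an overlap of 49.1%.

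**Figure D4:**
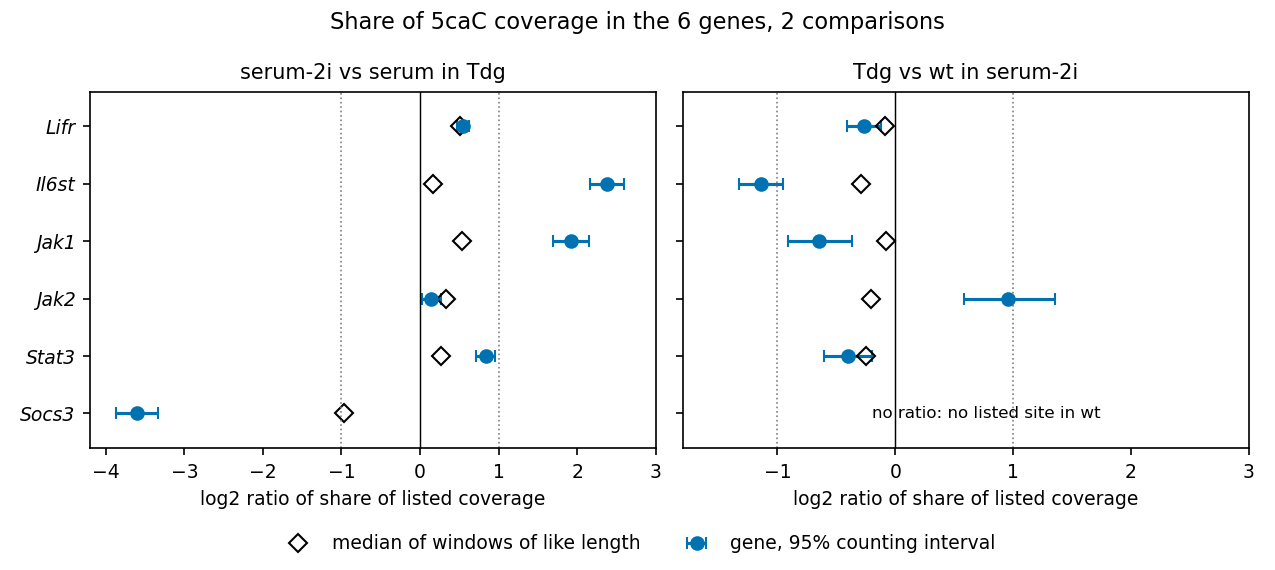
log2 ratio of the share of listed coverage in the 6 genes for serum-2i over serum in Tdg cells (left) and Tdg over wt in serum-2i (right). Points have 95% counting intervals, open diamonds are medians of windows within 2-fold of the length and dotted lines mark a 2-fold difference. Il6st and Jak1 lie beyond the line on the right side of the left panel and Socs3 beyond it on the left side.

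The serum wt group allowed little. With 1 site each in Lifr and Il6st, serum-2i over serum in wt cells gave log2 ratios of 1.21 (0.27 to 2.34) for Lifr and 0.41 (-0.49 to 1.49) for Il6st. The first passes the rule for a higher share, but it rests on that single serum site. Of the 3559 windows compared, 4.64% were called higher, 61.3% lower and 65.9% in either direction, and with the median window as 0 the split was 25.8% and 24.8%. Tdg over wt in serum gave 0.39 (-0.53 to 1.53) for Lifr and -3.11 (-4.02 to -2.03) for Il6st, where the second passes the rule for a lower share. Of 3918 windows 4.13% were higher, 55.8% lower and 60.0% in either direction, and with the median window as 0 the split was 23.8% and 25.1%. Jak1, Jak2, Stat3 and Socs3 had no serum wt site and no ratio. The comparisons that share a group are not independent of each other.

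Around the 6 genes, 58 further genes of the pathway were taken by role: ligands, other receptors, other kinases and adaptors, other STATs, inhibitors and STAT3 targets. In Tdg cells 55 had a site in both media, and 9 were called higher and 24 lower in serum-2i, with a median log2 ratio of -0.72. All windows had 25.2% and 27.0%. Short windows had lower ratios over all genes, as given above for the length of Socs3, and several windows of the list are short. Centred on windows of like length, 6 were called higher and 23 lower. No share over all windows was computed with that centring, so these counts have no background beside them. The counts by role that follow were not centred on length. Windows of neighbouring genes such as Stat5a and Stat5b can hold the same sites.

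Of 8 genes for secreted ligands with a ratio 5 were lower, 3 between and none higher (median -1.75). A further ligand gene was listed in serum-2i Tdg cells alone. The windows of the 8 were short, 8.24 to 18.9 kb. Of windows of like length to Socs3 (8.26 kb), 49.0% were called lower and 12.2% higher, so the counts are not read as a result about ligands. Among ligands with at least 5 sites in a group, ratios ran from Il27 (-0.32) to the cardiotrophin gene Ctf1, with 2 sites against 7 (-3.17, -3.75 to -2.64). Lif itself had 28 sites in serum-2i Tdg and 40 in serum Tdg cells (-1.62) and was lower. The other receptors had 5 lower and 3 between of 8 (median -1.83). Lepr, the leptin receptor, was lowest, with 1 site against 6 (-3.32, -3.94 to -2.74), and Il6ra, the IL-6 receptor chain that pairs with gp130, was highest with 84 against 28 (0.91, 0.80 to 1.02), just short of a call.

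Of the other kinases and adaptors, 3 of 10 were higher and 2 lower. Yes1, a SRC-family kinase, led with 20 sites against 5 (2.11, 1.85 to 2.39), and Jak3, the kinase of lymphoid cytokine receptors, was lowest with 46 against 97 (-2.34, -2.42 to -2.26). Among the other STAT genes 1 of 6 was lower, Stat6 of the IL-4 response with 17 sites against 58 (-2.87, -2.99 to -2.74), and none was higher. Stat4 was at 0.83 with 22 against 8.

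The inhibitors were split, with 5 higher, 4 lower and 5 between of 14. Socs6 was highest, with 9 sites against 1 (3.09, 2.40 to 3.87), and Socs7 lowest, with 19 against 40 (-1.92, -2.05 to -1.78).  Socs4 had 9 sites in serum-2i Tdg cells and none listed in serum Tdg cells. STAT3 targets had 7 lower, 1 higher and 1 between of 9 (median -2.01). The kinase gene Pim3 was lowest, with 4 sites against 12 (-2.94, -3.30 to -2.60), in a window of 7.53 kb. Tfcp2l1, a factor that relays the LIF signal, was the 1 higher, with 53 against 12 (1.64, 1.47 to 1.81), in a window of 61.2 kb. Of windows of like length to Socs3 (8.26 kb), 49.0% were called lower and 12.2% higher. Of those like Jak2 (65.3 kb), 13.7% were lower and 30.5% higher. The split of the targets was thus not separated from window length. Junb had 6 sites in serum Tdg cells and none in serum-2i Tdg cells.

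**Figure D5:**
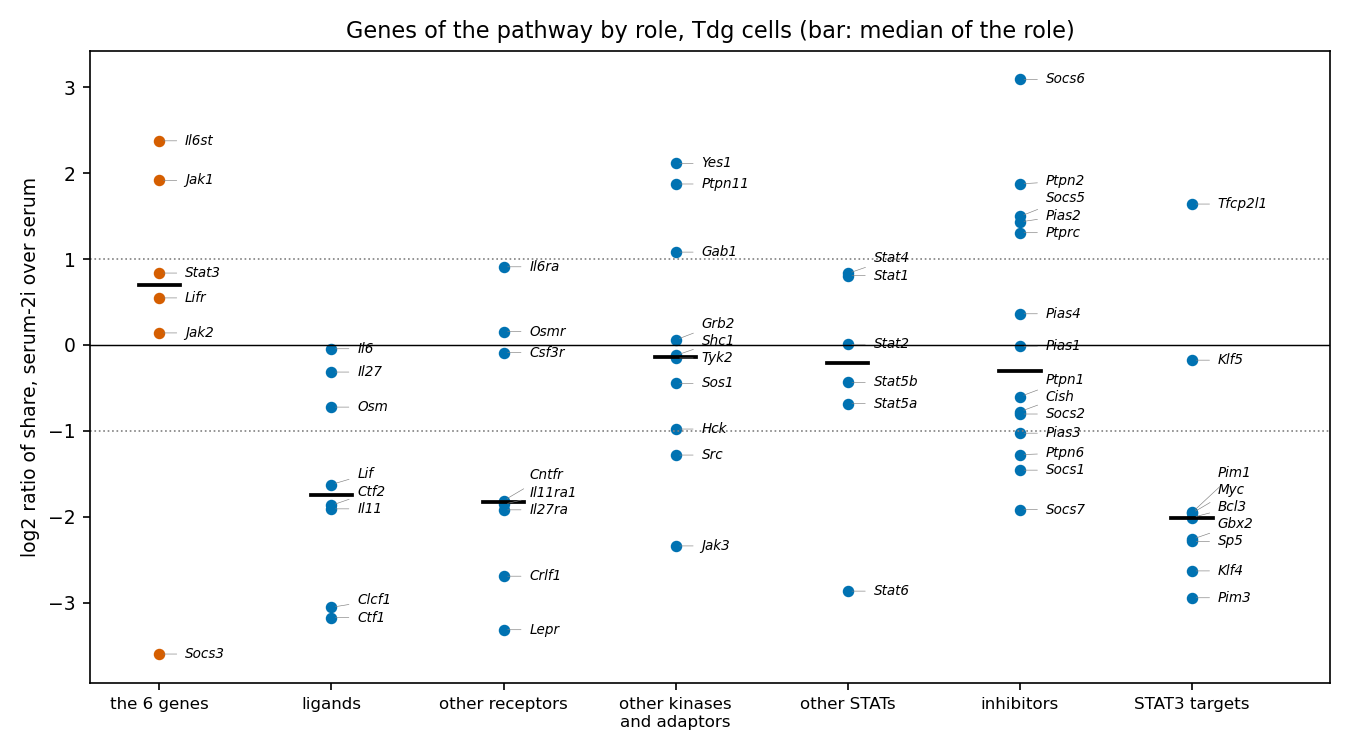
log2 ratio of the share of listed coverage, serum-2i over serum in Tdg cells, for the 6 genes and 55 further pathway genes by role. Each point is 1 gene, bars are medians of a role and dotted lines mark a 2-fold difference. No ligand lies above 0, and Tfcp2l1 is the 1 STAT3 target above the upper dotted line.

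In Tdg against wt cells in serum-2i, 45 of the 58 genes had a ratio, and 5 were called higher, 6 lower and 34 between (median -0.14, against -0.29 over all windows). With the median window as 0 the split was 7 higher and 3 lower. Lif was the highest of the ligands, with 28 sites in Tdg cells and 1 in wt cells (1.71), and was called higher, and Il11 was the lowest, with 13 against 3 (-0.998). Among the STATs Stat6 was higher (17 against 1, 1.13) and Stat5b lower (56 against 15, -1.05). Among inhibitors Pias3, a SUMO ligase that binds STAT3, was highest (30 against 2, 2.06) and Socs7 lowest (19 against 9, -1.60). The receptors ran from Il6ra (84 against 7, 0.58) to Csf3r (15 against 4, -0.79) among those with enough sites, and the kinases and adaptors from Sos1 (62 against 6, 0.96) to Gab1 (119 against 29, -0.63). The targets ran from Klf5 (29 against 2, 1.52) to Tfcp2l1 (53 against 8, -0.10). Several of these ratios rest on 1 or 2 wt sites.

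For each member, the genes of like window length were ranked by how near their 4-group profile of sites was to it, each group's count being divided by that group's total and the profile scaled to sum to 1. The measure was the summed absolute difference over the 4 groups, where 0 is an equal profile. Socs3 was matched exactly by Hoxb4 (42 and 10 sites in serum and serum-2i Tdg cells, none in wt cells) and Cdkn2b (21 and 5), out of 1924 genes. For Il6st the nearest were Zfp106 (0.0338) and Gon4l (0.0581) of 4414, for Lifr Kirrel (0.0451) and Mtss1 (0.0496) of 2931, and for Jak1 Cnot4 (0.00535) and Nploc4 (0.00960) of 2855. For Jak2 they were Henmt1 (0.0120) and Ramp1 (0.0261) of 3993, and for Stat3 Atp13a3 and Metap1 (0.00623 each) of 4231. The share of compared genes within 0.1 of a member was 0.113% for Il6st, 0.375% for Lifr, 1.63% for Jak2, 2.91% for Jak1, 3.64% for Socs3 and 5.20% for Stat3. The low shares of Il6st and Lifr depend on 1 serum wt site each. After division by the small serum wt total, that site made up 34.0% of the Il6st profile and 16.4% of the Lifr profile.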

How the data were processed

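5caC was measured in 10 mouse embryonic stem cell samples. Per the labels' protocols, hydroxymethylated and unmodified CGs were blocked, an engineered SssI methyltransferase replaced the carboxyl group with an azide tag, and tagged DNA was biotinylated, enriched and, after priming and amplification, read by Ion Proton sequencing. The authors deposited a coverage signal per CG position and group, made with the help of the control samples per the labels. Per the submitters' processing notes, the build was mm10. The aligner and the listing rule are not stated here because they are not given in the sources used.

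Positions were found to count from 0, since all 15198 listed positions in RefSeq promoters had a CG exactly 1 base on, and are printed counted from 1. Coverage was summed over the RefSeq span (GRCm38.p6) plus 2 kb of 21631 protein-coding genes, scaled to each group's total, and compared as a log2 ratio with an exact conditional Clopper-Pearson interval of the coverage summed over 2 replicates, with Python 3.11.15 and scipy 1.17.1. The script was tested on simulated independent counts, which leave out the dependence between reads and between neighbouring CGs. With 1 value per group the planned count models could not be run.

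The members and lists were chosen with earlier results of these data known. Named genes are the 6 members, the highest and lowest pathway gene by role among those with at least 5 sites in a group, once between media in Tdg cells and once between genotypes in serum-2i, and the 2 nearest profiles per member with at least 20 sites. Lif, Socs4 and Junb were named after their values were seen. Alternatives changed flanks, coverage minimum, scaling and site choice.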

Additional observations from a re-analysis of the deposited data

How the results depend on the processing

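Of 137 recomputed member ratios 4 turned their sign, and none of these was called. Jak2, serum-2i over serum in Tdg cells, stood at -0.33 by number of sites and -0.19 when centred on windows of like length, a setting chosen after seeing the data, as was dividing coverage at shared positions by group totals. For Tdg over wt in serum-2i, Lifr was 0.022 with the median window as 0 and Stat3 was 0.16 from a minimum coverage of 10. The cause was not tested. Members called for serum-2i over serum in wt cells were 1 of 2 with a ratio. They became 0 of 2 by number of sites, and 2 of 2 with the median window or like length as 0. From a minimum of 6 or 10 and without the highest site no member had a ratio. For Tdg over wt in serum-2i the members called (1 of 5) were 0 without flanks and with 5 kb flanks, and 2 without the highest site. For Tdg over wt in serum, 1 of 2 became 0 of 2 by number of sites and 2 of 3 with 5 kb flanks. It became 2 of 2 with the median window or like length as 0. There too no member had a ratio from a minimum of 6 or 10 or without the highest site. For the media in Tdg cells the count ran from 2 to 4 (3 as reported), but not over the same genes: without flanks Socs3 had no ratio and Stat3 was called in its place.

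Pathway genes called for the media in wt cells were 11 of 18 with a ratio, against 65.9% of all windows. They became 2 of 18 by number of sites and 4 of 6 without the highest site. From a minimum of 10 no pathway gene had a ratio. For Tdg over wt in serum-2i, 11 of 45 (35.6% of all windows) became 2 of 45 by number of sites. For Tdg over wt in serum, 7 of 18 (60.0% of all windows) became 1 of 18 by number of sites. There it was 1 of 1 from a minimum of 10 and 3 of 7 without the highest site, where most genes lost their ratio. The direction of the calls turned with the scaling. For Tdg over wt in serum 0 higher and 7 lower became 6 and 3 with the median window as 0, and 7 and 2 with like length as 0. For the media in wt cells 0 and 11 became 4 and 8, and 3 and 5. For Tdg over wt in serum-2i 5 and 6 became 7 and 3 under each. For the media in Tdg cells 9 and 24 became 9 and 23, and 6 and 23. With like length as 0, no share over all windows was computed to set beside these counts. Member sites in serum wt cells (2) became 4 with 5 kb flanks and 0 from a minimum of 6 or 10, and in serum-2i wt cells 15 from a minimum of 10 instead of 68. Setting the median window to 0 takes out medians of -0.05 (media in Tdg cells), -1.59 (media in wt), -0.29 (Tdg over wt in serum-2i) and -1.29 (Tdg over wt in serum), since the reported values are relative to group totals. No paired analysis was possible because the table has 1 value per group. For the same reason leaving out a replicate, edgeR and DESeq2 were not run.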
